A study of Homo sapiens with 12 samples.

Results

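The MYC, MAX and MXD network is a group of transcription factors of the basic helix-loop-helix leucine zipper class, and its 9 members here are MYC, MAX, MXD1, MXI1, MXD3, MXD4, MNT, MGA and MLX. They were found by their gene symbol, and all 9 were listed once in each of the deposited tables, among 25914 genes. RNA-seq was carried out on 12 libraries, 3 for each of 4 groups. HCT116 is a human colon cancer cell line, and RPE-1 hTERT is a noncancerous human retinal pigment epithelium line immortalized with telomerase. The labels give both as wild-type. Each line was treated for 24 h with 10 µM Nutlin-3a, an inhibitor of the p53 antagonist MDM2 that lets p53 build up, or with DMSO as the solvent control.

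The study asks how Nutlin-3a changes the transcriptome of each line. The deposited values that answer this question are the authors' own fold changes and p-values, which were not used here, and values per library were not analysed here. No change with Nutlin-3a and no difference between the lines is therefore given for any gene. What follows describes the base mean, the authors' mean of normalized read counts over the libraries of their fit. The base mean was the same in both tables for each of the 25914 genes, so it is not a level in RPE-1 or HCT116 alone, and it mixes Nutlin-3a with DMSO. Which libraries it averages is not given in the sources used here. It carries no spread between replicates, so none of the differences in level described here could be tested, and the read depth per library is unknown. For the same reason the cell lines could not be checked against their marker genes.

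MYC and its relatives bind DNA only as dimers. MAX is the shared partner: with MYC it activates genes through the E-box, a short palindromic DNA element, and with the MXD proteins, MNT or MGA it represses genes through the same element. MXD proteins and MNT bring SIN3 corepressors and histone deacetylases to their targets, and MGA belongs to a Polycomb complex. MLX is a second partner, which dimerizes with MLXIP and MLXIPL and with some MXD proteins. MYC promotes growth and ribosome production, and several MXD proteins are known for their rise in differentiating and resting cells.

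MYC had the highest level of the network. Its base mean was 9047 normalized counts. The gene (ENSG00000136997) lies on the plus strand of chromosome 8 of GRCh38, from 127735434 to 127742951. A longer RNA yields more reads at the same number of molecules, so the levels of single genes are compared per kilobase of annotated exon, and base means are given as the values listed. On the scale per kilobase MYC stood at 1481 normalized counts per kb, above 96.3% of the genes with an annotated length, 3.38 times the level of MAX and 2.90 times that of MXD4, the next member in the order.

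MAX (ENSG00000125952), on the minus strand of chromosome 14 from 65006174 to 65102695, had a base mean of 2743 normalized counts. Per kilobase of exon its level was 438.4. MXD4, one of its repressor partners, was the member closest to it, at 1.17 times the level of MAX per kilobase. The other repressor partners of MAX, namely MXD1, MXI1, MXD3, MNT and MGA, all had a level per kilobase below that of MAX.

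The 4 MXD repressors were spread widely. MXD4 (ENSG00000123933), on the minus strand of chromosome 4 from 2247432 to 2262109, had a base mean of 3514 normalized counts and a level of 511.2 per kb. MXI1 (ENSG00000119950), on the plus strand of chromosome 10 from 110207605 to 110287365, had a base mean of 1190 and a level of 201.5 per kb. MXD4 alone made up 55.4% of the summed level per kilobase of the 4 genes.

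MXD1 (ENSG00000059728), the founding member of the MXD repressors, lies on the plus strand of chromosome 2 from 69897688 to 69942945. Its base mean was 787.3 normalized counts and its level 124.0 per kb. MXD3 (ENSG00000213347), on the minus strand of chromosome 5 from 177301461 to 177312757, had a base mean of 405.3 normalized counts and the lowest level per kilobase of the network, 85.4. This was above the median of all genes with an annotated length, 51.3 per kb, but below that of the protein-coding ones, 120.3 per kb. The summed level of the 4 MXD repressors was 922.1 per kb, and MYC alone stood at 1.61 times this sum.

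MNT and MGA are larger repressors that also pair with MAX. MNT (ENSG00000070444), on the minus strand of chromosome 17 from 2384073 to 2401104, had a base mean of 1697 normalized counts. Its level per kilobase was 195.1, and MXI1 stood at 1.03 times this level. MGA (ENSG00000174197), on the plus strand of chromosome 15 from 41621134 to 41773081, had a base mean of 2787 normalized counts and has 20074 bases of annotated exon against 6257 in MAX. Its level per kilobase was 138.9, 0.317 times that of MAX, and its place among the 9 members moved from 3 by base mean to 7 per kilobase.

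MLX (ENSG00000108788), the partner of the second branch, lies on the plus strand of chromosome 17 from 42567072 to 42573239. It had a base mean of 1316 normalized counts. Per kilobase it moved up, from place 6 of the 9 members to place 4, with a level of 309.4. Of the MLX partners outside the 9 members, MLXIP had a level of 325.3 per kb and MLXIPL one of 122.3 per kb.

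**Figure D1:**
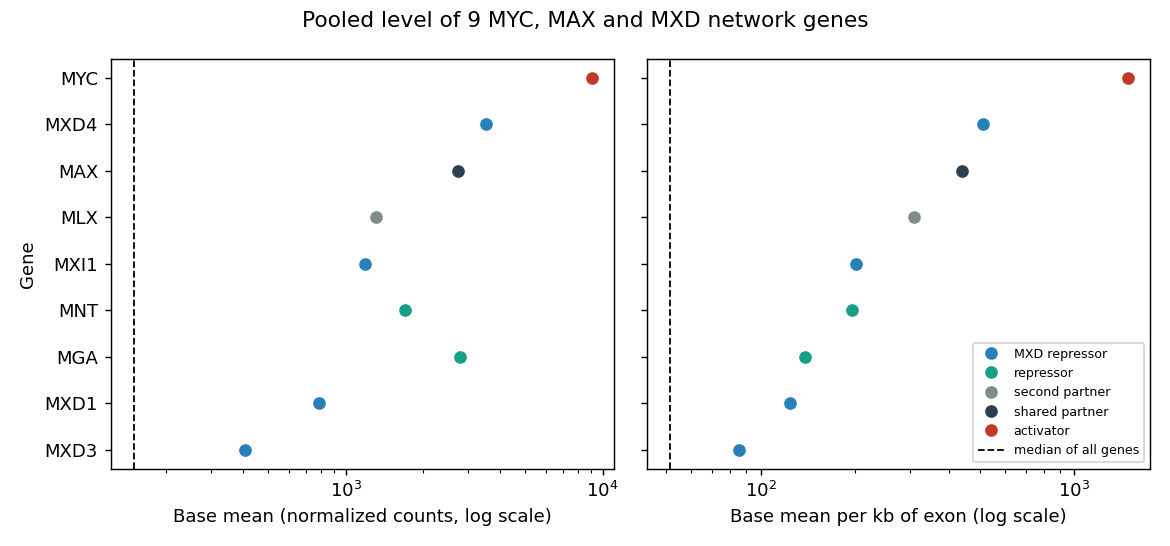
Pooled level of the 9 network genes, 1 point per gene, as the base mean in normalized counts (left) and per kilobase of annotated exon (right), both on log axes, with genes ordered by the level per kilobase and coloured by role. No error can be drawn for a pooled value. MYC lies farthest to the right at 9047 normalized counts and 1481 per kb, and all 9 points lie to the right of the dashed line, the median of all listed genes at 149.8 normalized counts and 51.3 per kb.

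Per kilobase the 9 members spanned 17.3-fold from MXD3 to MYC. All 9 were above the median of all genes, and 8 of them, all but MXD3, were above that of protein-coding genes. MYC, MXD4, MAX and MLX, 4 of the 9, were above the upper quartile of all genes, 225.0 per kb. All 9 are protein-coding, whereas that quartile, here and for the lists below, also takes in noncoding genes. The upper quartile of protein-coding genes was not computed. From highest to lowest level per kilobase, the order was MYC, MXD4, MAX, MLX, MXI1, MNT, MGA, MXD1 and MXD3. Whether neighbours in this order differ beyond their spread cannot be said from pooled values.

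The MYC paralogues had lower levels. MYCL had a base mean of 327.4 normalized counts and 65.9 per kb. MYCN, known for its amplification in neuroblastoma, had a base mean of 66.7 and 24.2 per kb, and was, per kilobase, the gene below the median of all genes among the 4 paralogues and MLX partners. Per kilobase, MYCL and MYCN were both below the median of protein-coding genes. PVT1, a long noncoding RNA gene next to MYC, had a base mean of 3403 normalized counts and 133.8 per kb. It was above the upper quartile of all genes by base mean and below it per kilobase, so its place depended on the division by exon length.

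Per kilobase, all 16 cofactors and repressor subunits on a fixed list were above the median of all genes, 14 were above that of protein-coding genes and 14 above the upper quartile of all genes. Their median was 282.3 per kb. SIN3A, the scaffold that MXD proteins bind, had 332.0 per kb and its relative SIN3B 237.5 per kb. The histone deacetylases HDAC1 and HDAC2 had 954.7 and 288.9 per kb. By base mean their order was the reverse, with 3786 normalized counts for HDAC1 and 4429 for HDAC2. TRRAP, the scaffold through which MYC recruits acetyltransferases, had 325.9 per kb. The highest of the list was RUVBL2, an ATPase found in chromatin remodelling complexes, at 1166 per kb.

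Among 8 regulators of MYC stability or activity, 7 were above the median of all genes per kilobase. The same 7 were above that of protein-coding genes, and 5 were above the upper quartile of all genes. SKP2, a ubiquitin ligase subunit, was the one below both medians, at 47.5 per kb. Its base mean was 826.2 normalized counts, and by base mean all 8 regulators were above the median of all genes. The place of SKP2 thus depended on the division by exon length. HUWE1, a very large ubiquitin ligase, was the highest at 1330 per kb. FBXW7, the ligase subunit that recognises phosphorylated MYC, had 125.4 per kb, and USP28, the deubiquitinase that opposes it, had 174.3 per kb. On a list of 24 genes commonly given as MYC targets, 23 were above the median of all genes per kilobase. The same 23 were above that of protein-coding genes, and 22 were above the upper quartile of all genes. The median of the list was 1141 per kb. FBL, which encodes the nucleolar protein fibrillarin, was the highest at 2420 per kb, followed by NCL, the gene of nucleolin, at 2349 per kb. TERT, the telomerase subunit, was the lowest at 5.98 per kb. RPE-1 hTERT was immortalized with telomerase, and this value cannot separate reads of an introduced TERT from those of the gene itself. A high level of such genes in pooled libraries is not a measure of MYC activity.

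The E-box that MYC-MAX dimers bind, with the letters CACGTG on either strand, was looked for in RefSeq windows of GRCh38.p14 that run from 250 bases before to 50 bases after an annotated start. Of the 9 members, all but MYC were matched by symbol, 8 genes with 13 windows in all, and MYC was not searched. The motif was in 3 of these 13 windows, 1 each of 3 members, and in 7.26% of all 35116 windows of that length. The bases around the 3 matches are shown because this element is the one the network itself reads. Capitals mark the motif, and each sequence is on the strand of its gene.
MXD4: gccgggccacCACGTGctgttgctaa
MNT: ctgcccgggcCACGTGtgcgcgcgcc
MLX: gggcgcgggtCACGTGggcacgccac

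The MXD4 stretch is chr4:2262332-2262357 on the minus strand, the MNT stretch chr17:2401238-2401263 on the minus strand, and the MLX stretch chr17:42567040-42567065 on the plus strand. The motif began 238 bases before the RefSeq start of the window in MXD4, 193 before it in MNT and 50 before it in MLX. In MNT and MLX this RefSeq start lies inside the gene span given above and not at its outer end. A match is a description of the letters and not a binding site. The windows of MAX, MXD1, MXI1, MXD3 and MGA held no match within these 300 bases. For MXD1 the only window, chr2:69914859-69915158, lies inside the gene span given above, so the outer start at 69897688 was not searched. The MAX windows reach only to 65102533 and leave out the outer start at 65102695.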

How the data were processed

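Per the paper's methods for RPE-1, the authors trimmed and corrected the RNA-seq reads, removed ribosomal reads, aligned the rest to hg38 (GRCh38) with segemehl and Ensembl 102, counted unique reads on exons by strand with featureCounts and compared Nutlin-3a with DMSO in each line by DESeq2. For both lines the submitters' processing notes also name featureCounts and DESeq2. The labels describe ribosomal RNA depletion and the paper poly(A) selection. The signal the authors deposited is the base mean, a mean of normalized counts. The other deposited columns hold the authors' own comparison (log2 fold change, its standard error, test statistic, p-value and adjusted p-value) and were not used.

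Exon lengths, as the union of exons, and positions came from GENCODE 44 on the same genome build, in which 25836 of the 25914 genes were found. The paper's counts used Ensembl 102, so an exon present only in GENCODE 44 adds length without reads. The effect of this on the levels per kilobase was not tested. Percentiles are shares of listed genes with a lower value on the same scale. Members and gene lists were chosen with earlier results of these data known. All 9 members and the listed genes were eligible to be named. Calculations used Python 3.11.15 with pandas 2.3.3 and scipy 1.17.1 and were checked on made-up input.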

Additional observations from a re-analysis of the deposited data

How the results depend on the processing

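The median percentile of the 9 members among all listed genes, 83.1 by base mean, was 78.9 among genes with a base mean of at least 10, 73.4 among protein-coding genes and 73.0 by base mean per kilobase of exon. The limit on base mean leaves out low genes by construction, and for the other settings the cause was not tested. All 9 members moved down with the limit and among protein-coding genes, and 8 of 9 did per kilobase, where MLX moved up. The lowest percentile, that of MXD3, was 61.1 among all listed genes by base mean and 40.4 among protein-coding genes. No paired analysis was possible because the values used here are pooled over libraries. For the same reason the planned tests of Nutlin-3a in each line and of the difference between lines, with their other normalization, filter and left-out replicates, were not run. Exon union length counts exons that these cells may not use, which lowers the level per kilobase of genes with many transcripts.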
